A study of Mus musculus with 8 samples.

Results

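The mouse mitochondrial genome carries 37 annotated genes, and every one of them was listed on at least 1 of 5 plates of single cells sorted from Tac1-reporter intestinal organoids. The members were chosen by name: all rows whose symbol starts with mt- or whose identifier places them on chromosome M. They make up 37 of the 17124 genes listed on the 5 plates, spike-ins left out. They are 13 protein genes, 2 ribosomal RNA (rRNA) genes and 22 transfer RNA (tRNA) genes. The files of the Gip and Gcg reporter plates of the same series list 0 such rows and are not used here.

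Organoids are small three-dimensional epithelial cultures grown from intestinal stem cells. Tac1 encodes the precursor of substance P and marks enterochromaffin cells, the serotonin-making enteroendocrine cells of the gut. All cells carried the Tac1 reporter (titled Tac1-Cre on some plates) on a C57BL/6 background and were sorted live for reporter positivity, one cell to a well of a 384-well plate. BMP4 is a secreted signalling protein that is more abundant towards the tip of the intestinal villus. Tac1 plates 1 and 2 held 3 groups side by side: no BMP4 in columns 1 to 6, 24 h of BMP4 in columns 7 to 12 and 4 days of BMP4 in columns 13 to 24. The 24 h plate held only cells after 24 h of BMP4, and 4 day plates 1 and 2 held only cells after 4 days. The number of animals or organoid cultures behind a plate is not stated. The p-values of the main test measure how treatment differences vary between Tac1 plates 1 and 2, with the spread shared over genes. That variation may be technical. On the 2 plates with 3 groups, treatment and place on the plate cannot be told apart.

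A well counted as a cell when it held at least 2000 transcripts of nuclear genes, spike-ins left out. This kept 327 of 1920 wells: 163 on Tac1 plate 1, 41 on Tac1 plate 2, 48 on the 24 h plate, and 30 and 45 on 4 day plates 1 and 2. Their transcripts were added up per plate and treatment into 9 sums of 9 to 68 cells, which hold 59319 to 467513 nuclear and 4450 to 30145 mitochondrial transcripts. Every one of the 10 enterochromaffin markers was detected in every sum, at a summed level of 36612 to 90992 transcripts per 1000000 nuclear transcripts (CPM below). That sum went from 89316 CPM without BMP4 to 87059 after 24 h and 41806 after 4 days on Tac1 plate 1, and from 90992 to 52760 and 49545 on Tac1 plate 2. With 36612 and 46944 CPM on the 4 day plates, the 4 sums at 4 days were the lowest of the 9. On Tac1 plates 1 and 2, Chgb, also a general enteroendocrine marker, went from 56336 to 17850 CPM and from 54883 to 19897 CPM (none, 4 days). Tph1, of serotonin synthesis, went the other way, from 1484 to 1713 CPM and from 880 to 1634 CPM. In the test described below, 4 of the 10 markers were higher at 4 days than without BMP4 and 6 lower, and 1, Tac1, passed. The 6 Paneth cell markers summed to 4.85 to 337 CPM and the 7 goblet cell markers to 1080 to 2950 CPM. The well numbers run from 1 to 384 on every plate and mark positions, not shared cells.

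Mitochondrial DNA is transcribed by its own polymerase, Polrmt, with Tfam, as long RNAs that cover nearly a whole strand. The tRNAs lie between most of the other genes and are cut out, which releases the rRNAs and the messenger RNAs (mRNAs). The heavy strand serves as template for both rRNAs and for all mRNAs except that of Nd6. The 13 proteins are subunits of respiratory complexes I, III, IV and V, whose other subunits come from nuclear genes. Most mitochondrial mRNAs receive a short poly(A) tail, and in some of them the tail completes the stop codon. The cells' RNA was copied here from a poly(T) primer, so that poly(A) tails and stretches of A within a transcript are where priming can start.

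The 3′ ends of the reference transcripts show that difference among the members. The sequences below are from GENCODE M21 on GRCm38, the mm10 assembly, 5′ to 3′, with the encoded part of the stop codon in capitals. The first pair are complete stops, at M:6843-6872 (plus strand) and M:13552-13581 (minus strand), and the next 3 end on a lone T, at M:9361-9390, M:11515-11544 and M:15259-15288.
mt-Co1: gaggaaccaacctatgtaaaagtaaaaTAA
mt-Nd6: tttattattatcgagattactcgagatTAA
mt-Co3: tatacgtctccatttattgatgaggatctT
mt-Nd4: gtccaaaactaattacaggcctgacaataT
mt-Cytb: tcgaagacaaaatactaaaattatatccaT

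The next pair carry the genes that passed the test after 4 days of BMP4. The last 30 bases of mt-Nd4l (M:10144-10173) are shown with the 7 bases that mt-Nd4 also covers in capitals, and the end of the methionine tRNA gene mt-Tm (M:3899-3928) with the first 15 bases of mt-Nd2, which starts at the very next base, in capitals.
mt-Nd4l: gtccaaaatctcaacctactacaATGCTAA
mt-Tm: atccttcccgtactaATAAATCCTATCACC

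The last pair show, in capitals, the longest run of A in the most abundant member, the large-subunit rRNA mt-Rnr2 (M:1473-1509), and in mt-Nd2 (M:4037-4074).
mt-Rnr2: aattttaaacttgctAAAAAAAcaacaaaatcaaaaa
mt-Nd2: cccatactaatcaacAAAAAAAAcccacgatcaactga

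Runs of at least 6 A occur 4 times in mt-Rnr2, 3 times in mt-Nd2, 2 times each in mt-Nd4 and mt-Nd5 and 0 times in mt-Rnr1. mt-Nd6, the one mRNA from the other strand, has 22.2% A, the lowest share of the 15 protein and rRNA members, and no run longer than 3. Whether priming inside a transcript occurred was not tested.

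Mitochondrial transcripts made up a moderate part of each library. On Tac1 plate 1 they were 6.06% of all gene transcripts without BMP4, 6.90% after 24 h and 6.50% after 4 days. On Tac1 plate 2 they were 4.88%, 6.98% and 4.39% in the same order. The share was therefore highest after 24 h on both plates, whereas the 4 day group lay above the untreated group on plate 1 and below it on plate 2. The 24 h plate stood at 8.76%, and 4 day plates 1 and 2 at 9.31% and 12.2%, above all 6 sums of the other plates. The share is a sum over the members and is described without a test.

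Within a plate, the share differed between 24 h of BMP4 and none by 1.47 ± 0.88 percentage points (mean ± SD, n = 2 plates). For 4 days against none the difference was -0.026 ± 0.66 points (n = 2), with opposite signs on the 2 plates. For 4 days against 24 h it was -1.50 ± 1.54 points (n = 2), an SD larger than the mean. The 24 h sum of Tac1 plate 2 rests on 9 cells. Without sums of under 10 cells, the 24 h difference was 0.847 points on the remaining plate. At 2000 to under 4000 nuclear transcripts a cell, the 4 day difference from none was -1.43 points, and without pairing by plate it was 2.62 points, as the 4 day plates then enter the mean.

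**Figure D1:**
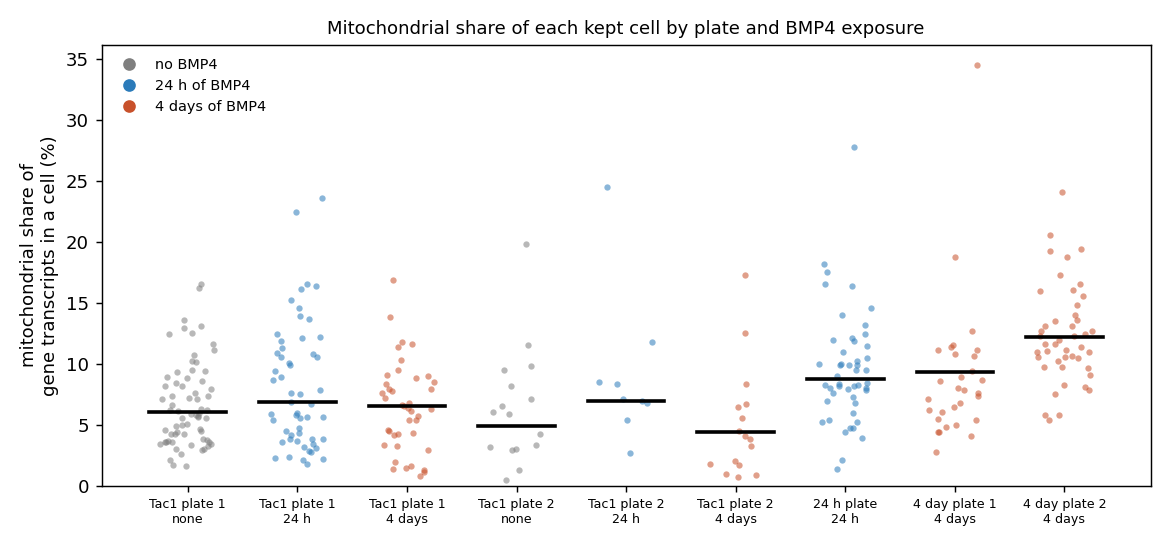
Mitochondrial share of gene transcripts (percent, y axis) of each of the 327 kept cells (points) in the 9 sums (x axis, plate and BMP4 exposure); black lines give the share of the summed transcripts. The single-treatment plates, at 8.76 to 12.2%, lie above the 6 sums of Tac1 plates 1 and 2, at 4.39 to 6.98%, and cells overlap between all groups.

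Cells of one sum spread widely. The SD of the share between cells was 3.46 to 6.25 points over the 9 sums, against 0.296 to 0.563 points from the number of transcripts alone, and differences in capture between wells were not measured. The lowest cell had 0.514%, on Tac1 plate 2 without BMP4, and the highest 34.4%, on 4 day plate 1. A share over 20% was seen in 2 cells of the 24 h group and 0 cells of the other 2 groups on Tac1 plate 1, in 1 cell of the 24 h group on Tac1 plate 2, and in 1 or 2 cells on each single-treatment plate. The quartiles of the untreated cells of plate 1 were 3.83 and 8.61%, those of its 24 h cells 3.83 and 11.2% and those of its 4 day cells 4.14 and 8.49%. The groups on this plate therefore overlapped over most of their range.

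The share also differed between column blocks of plates with 1 treatment. On the 24 h plate, where every well had the same treatment, the pooled share was 7.51% in columns 1 to 6 (14 cells), 9.83% in columns 7 to 12 (13 cells) and 9.50% in columns 13 to 24 (21 cells). On 4 day plate 2 the same blocks gave 8.16% (7 cells), 13.1% (16 cells) and 13.1% (22 cells). On 4 day plate 1 they gave 9.92% (2 cells), 7.68% (7 cells) and 9.99% (21 cells). Columns 1 to 6, where the untreated cells lie on Tac1 plates 1 and 2, were lowest on 2 of these 3 plates. The part of plate position in the 24 h difference was not tested.

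Spike-in RNA, added to each well before lysis, gave a scale that does not depend on nuclear genes. Mitochondrial transcripts per spike-in transcript were 0.519, 0.551 and 0.444 without BMP4, after 24 h and after 4 days on Tac1 plate 1. They were 0.291, 0.507 and 0.312 on Tac1 plate 2. The 24 h group was again the highest on both plates. The single-treatment plates had 1.76 to 3.06, and also far fewer spike-in transcripts in a cell, a median of 102 to 130 against 811 to 1120, so levels are not compared across these sets of plates.

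Among wells of at least 1000 nuclear transcripts, the median share fell with depth on Tac1 plates 1 and 2. On plate 1 the shallower bins were lower than the 1000 to under 2000 bin, with 7.08%, 7.15% and 8.72% from the shallowest up. On Tac1 plate 1 the median share was 9.76% in wells of 1000 to under 2000 nuclear transcripts (49 wells), 8.19% at 2000 to under 4000 (57 wells), 6.36% at 4000 to under 8000 (58 wells) and 4.48% at 8000 and more (48 wells). On Tac1 plate 2 the deepest wells also had the lowest median, 3.18% (11 wells), against 7.34% at 1000 to under 2000 (30 wells). Within the 9 sums, Spearman's rho between share and depth ranged from -0.62 to 0.0042, with nuclear transcripts entering both measures. The 0.0042 belongs to the 4 day cells of Tac1 plate 1, whose medians were 5.71%, 7.19% and 5.29% in the 3 bins from 2000 transcripts up. Wells of under 200 transcripts, which were not kept, had median shares of 5.52 to 9.26% by plate, within the range of the 9 sums' medians over kept cells, 3.92 to 11.6%.

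**Figure D2:**
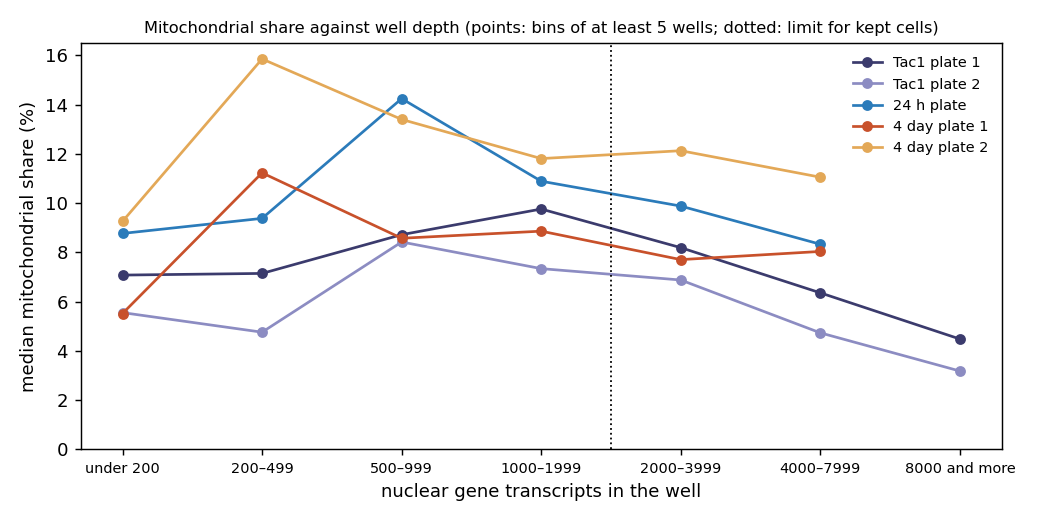
Median mitochondrial share (percent, y axis) of wells in 7 bins of nuclear transcripts a well (x axis), 1 line for each plate, bins of at least 5 wells; the dotted line marks the limit for kept cells. Above 2000 transcripts the median of Tac1 plate 1 falls along the bins from 8.19 to 4.48%, and 4 day plate 2 lies highest, at 11.1% for 4000 to under 8000 transcripts (5 wells).

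A few members made up nearly all mitochondrial transcripts. Over all 1920 wells, mt-Rnr2 held 33.8% of them and mt-Rnr1, the small-subunit rRNA, 11.2%. The mRNAs of mt-Nd4 (complex I), mt-Co1 (complex IV), mt-Cytb (complex III), mt-Co2 (complex IV) and mt-Atp6 (complex V) held 8.20%, 7.61%, 6.81%, 6.71% and 6.62%. mt-Nd1 followed with 5.10%, mt-Co3 with 4.21%, mt-Nd2 with 3.80%, mt-Nd5 with 3.19% and mt-Nd3 with 1.43%. The short mRNAs mt-Nd4l and mt-Atp8 held 0.63% and 0.37%, and mt-Nd6 held 0.13%. The 22 tRNAs stayed at or below 0.046% each, led by mt-Tm with 105 transcripts, mt-Te with 45, mt-Tw with 35 and mt-Ti with 30. The other 18 had 2 to 25 transcripts each, and mt-Tf had none in a kept cell.

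Per kilobase of gene length, the order of the levels was less steep. RNA was copied from a poly(T) primer and counted by molecule, so a longer transcript need not give more counts. Dividing by length is therefore a description and may not correct the levels. mt-Rnr2 had a median over the 9 sums of 13329 CPM per kilobase (range 7218 to 28349), mt-Co2 8178 (5512 to 14140) and mt-Atp6 7434 (5372 to 16022). Their ranges overlap, and each of the 3 ranked first in at least 1 sum. mt-Rnr1 followed with 5861 (3254 to 16989), and mt-Nd4, mt-Cytb, mt-Co3, mt-Nd1 and mt-Co1 had medians of 3883 to 4741 with overlapping ranges. mt-Nd2 stood at 2742, mt-Nd3 at 2107, mt-Atp8 at 2063, mt-Nd4l at 1520 and mt-Nd5 at 1360. mt-Nd6 was lowest of the 15 in all 9 sums, at 190 CPM per kilobase (91 to 347), below the range of every other mRNA and rRNA.

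The balance of rRNA and mRNA differed between plates. The 2 rRNAs held 36.4%, 36% and 44.1% of mitochondrial transcripts on Tac1 plate 1 (none, 24 h, 4 days) and 28.3%, 22.6% and 33.4% on Tac1 plate 2. The 4 day sum had the highest rRNA part on both plates. The 24 h plate had 52.6% and the 4 day plates 44.3% and 44.1%. The rRNA part also differed between column blocks (1 to 6, 7 to 12, 13 to 24) of plates with 1 treatment, from 2 to 22 cells a block. It was 54.4%, 56.1% and 48.3% on the 24 h plate and 45.3%, 56.3% and 40.1% on 4 day plate 1. On 4 day plate 2 it was 41.4%, 39.2% and 48.4%. The part of plate position in the treatment differences was not tested. The 3 complex IV mRNAs had their lowest part at 4 days on Tac1 plates 1 and 2. They held 24.7%, 24.3% and 19.6% on plate 1 and 27.7%, 31.7% and 23.1% on plate 2. All parts share 1 total, so that a larger rRNA part leaves less for the mRNAs. The 7 complex I mRNAs stayed between 21.2 and 26.6% in all 9 sums.

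**Figure D3:**
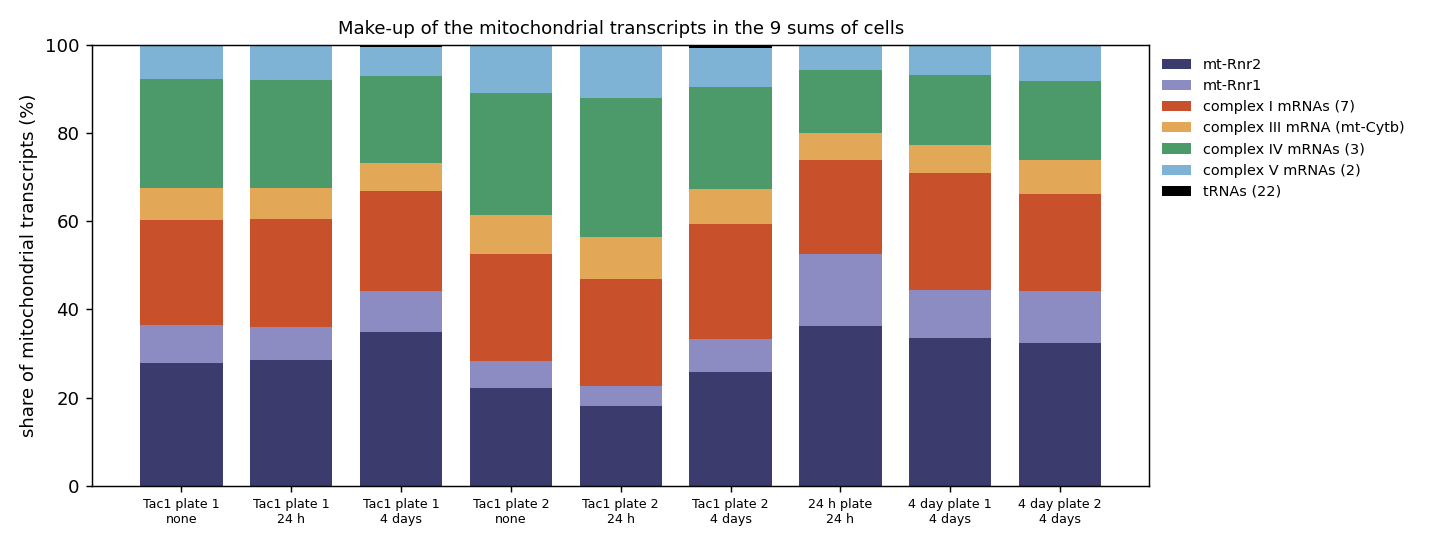
Share of mitochondrial transcripts (percent, stacked bars to 100%) held by the 2 rRNAs, the mRNAs of complexes I, III, IV and V and the tRNAs in the 9 sums (x axis). The rRNA part runs from 22.6% in the 24 h sum of Tac1 plate 2 to 52.6% on the 24 h plate, while the complex I part stays between 21.2 and 26.6%.

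Single genes were tested in one fit over all genes with edgeR's quasi-likelihood test, in which plate is a block, levels are relative to nuclear genes and p-values are adjusted by the Benjamini-Hochberg method. Of 5751 genes tested, 16 are members: the 13 mRNAs, the 2 rRNAs and mt-Tm. The other 21 tRNA genes had too few transcripts for the test. A gene passed at an adjusted p under 0.05. The fit has 2 residual degrees of freedom, so that each gene's spread leans on the estimate shared over genes. With plate as a block, the treatment differences come from Tac1 plates 1 and 2, as each of the other plates held 1 treatment.

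After 24 h of BMP4, no member passed. All 16 tested members had log2 changes above 0, from 0.062 for mt-Rnr1 to 1.44 for mt-Tm (median 0.43, against -0.011 over all genes tested), except that 5 fell below 0 when scaled to the mitochondrial total, which moved the median of all genes to -0.33, and 2 without Tac1 plate 2 and the plate block. Without sums of under 10 cells, which removes the 24 h sum of Tac1 plate 2 (9 cells), the members' median was 0.20. By plate, mt-Nd3 was at -0.027 on Tac1 plate 1 and mt-Nd4l at -0.61 on Tac1 plate 2. The SEs of the 16 members in the main fit were 0.38 to 0.89, and the smallest unadjusted p, 0.098, belonged to mt-Nd5 (0.68 ± 0.40, adjusted p = 1 in the edgeR fit). By this rule 6 genes passed in all, 0.104% of those tested (5 higher, 1 lower), and 100 had an unadjusted p under 0.05, 0 of them members. DESeq2 and limma also called 0 members. The complex IV mRNA mt-Co1 shows the spread behind these values. It stood at 7020, 8354 and 5999 CPM on Tac1 plate 1 (none, 24 h, 4 days), at 5421, 11484 and 4584 CPM on Tac1 plate 2, at 5418 CPM on the 24 h plate and at 5571 and 10150 CPM on the 4 day plates. The 24 h value was the highest within both plates of 3 groups, whereas the 24 h plate lay below both of these 24 h values (log2 change 0.67 ± 0.47, adjusted p = 1 in the edgeR fit).

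After 4 days of BMP4, mt-Nd4l and mt-Tm rose relative to untreated cells, and the other 14 tested members did not pass. mt-Nd4l encodes a small membrane subunit of complex I. Its level was 208 CPM without BMP4, 364 CPM after 24 h and 451 CPM after 4 days on Tac1 plate 1. On Tac1 plate 2 it was 312, 202 and 815 CPM. The 24 h plate had 949 CPM and 4 day plates 1 and 2 had 651 and 1121 CPM. All 4 sums at 4 days lay above both untreated sums, and the 24 h sums overlapped with both groups. The 4 day and untreated sums also separated for mt-Nd3 and mt-Nd6, which did not pass. The 4 day plates held no untreated cells, and their mitochondrial shares, 9.31% and 12.2%, were above those of Tac1 plates 1 and 2. As a part of mitochondrial transcripts, mt-Nd4l was 0.635% on 4 day plate 1, against 0.608% in the untreated sum of Tac1 plate 2. The fitted log2 change was 1.56 ± 0.42 (adjusted p = 0.025, edgeR), with 1.31 on plate 1 and 1.73 on plate 2. The call was lost without the plate block (1.73 ± 0.55, adjusted p = 0.073), with DESeq2 (adjusted p = 0.22) and with spike-in scaling (1.26 ± 0.45, adjusted p = 0.071). Without the block it was also missed on leaving out Tac1 plate 1, Tac1 plate 2, 4 day plate 1 or 4 day plate 2, and made on leaving out the 24 h plate (1.73 ± 0.42, adjusted p = 0.015).

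The transcripts of mt-Nd4l came from many cells. They were found in 41 of 68 untreated cells and 28 of 41 cells at 4 days on Tac1 plate 1, and in 8 of 16 and 11 of 16 cells on Tac1 plate 2. The cell with most held 31.1% of them in the 4 day sum of plate 2, 27.1 of 87.2 transcripts. Without the top cell of each sum the level went from 188 to 409 CPM on plate 1 and from 212 to 627 CPM on plate 2. Its neighbour mt-Nd4, with which it shares 1 long mRNA and 7 bases, did not pass. mt-Nd4 stood at 6050, 7079 and 5664 CPM on plate 1 and at 5031, 6533 and 3509 CPM on plate 2 (4 days against none -0.029 ± 0.46, adjusted p = 0.99, edgeR). It was lowest at 4 days within both of these plates, while the 4 day plates, at 9984 and 10329 CPM, had the highest levels of the 9 sums and the 24 h plate had 6776 CPM. mt-Nd4l was 3.43% of the mt-Nd4 level without BMP4, 5.14% after 24 h and 7.97% after 4 days on plate 1, and 6.20%, 3.10% and 23.2% on plate 2. It was 14% on the 24 h plate and 6.52% and 10.9% on the 4 day plates, so that the sums at 4 days lay on both sides of the 24 h plate. Reads over the bases they share, and their strand, cannot be assigned from the deposited values.

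mt-Tm, the methionine tRNA gene, rests on few transcripts. On Tac1 plate 1 it had 7, 16 and 21 transcripts (none, 24 h, 4 days), or 15, 45.2 and 102 CPM. On Tac1 plate 2 it had 1, 1 and 12 transcripts, or 9.44, 16.9 and 112 CPM. The 24 h plate had 3 transcripts, 4 day plate 1 had 5 and 4 day plate 2 had 0, for which 3 transcripts, 19.9 CPM, is taken as the limit. The 4 day groups of Tac1 plates 1 and 2 had the highest levels of the 9 sums, and 1 of the 4 sums at 4 days lay at 0. Exact Poisson 95% intervals, which cover counting error only, ran from 63.1 to 156 CPM at 4 days and from 6.02 to 30.8 CPM without BMP4 on plate 1. The transcripts at 4 days came from 13 of 41 cells on plate 1 and 7 of 16 cells on plate 2. The fitted log2 change was 3.24 ± 0.83 (adjusted p = 0.020, edgeR), and without the plate block it was 2.50 ± 1.12 (adjusted p = 0.23). DESeq2 gave mt-Tm no adjusted p, and limma gave 1.68 (adjusted p = 0.49). mt-Tm ends at the base before mt-Nd2, whose own change was 0.32 ± 0.40 (adjusted p = 0.81, edgeR).

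By this rule 313 genes passed at 4 days, 5.44% of those tested (211 higher, 102 lower; 67.4% higher, against 45.8% with spike-in scaling and 49.9% with the mitochondrial total), so the 2 of 16 members are to be read against that share. The median log2 change of the 16 members was 0.40, with 12 above 0, against a median of -0.012 over all genes. With spike-in scaling the median of all genes was -0.37, and 8 of the 16 members were above 0, with a median of 0.077. Of 918 genes with an unadjusted p under 0.05, 3 were members.

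mt-Nd6, the single light-strand mRNA, missed the threshold. It stood at 77, 98.7 and 121 CPM on Tac1 plate 1 and at 47.2, 118 and 150 CPM on Tac1 plate 2, from 5 to 36 transcripts a sum. The 4 day sum was the highest on both plates. On 4 day plate 2, mt-Nd6 stood at 92.8 CPM, above both untreated sums. That was below the 24 h sums, the lowest of which was 97.3 CPM on the 24 h plate. The log2 change at 4 days was 1.24 ± 0.50 (unadjusted p = 0.020, adjusted p = 0.19, edgeR). Its gene overlaps the end of mt-Nd5 on the other strand, and mt-Nd5, the longest mRNA, had 0.71 ± 0.40 (adjusted p = 0.43).

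None of the remaining mRNAs and rRNAs passed at 4 days. The short complex I mRNA mt-Nd3 and the complex V mRNA mt-Atp8 had log2 changes of 0.70 ± 0.40 and 0.66 ± 0.39 (adjusted p = 0.43 and 0.46, edgeR). mt-Nd2, mt-Nd1, mt-Cytb, mt-Co1, mt-Atp6, mt-Nd4, mt-Co3 and mt-Co2 had 0.32, 0.14, 0.062, 0.033, -0.012, -0.029, -0.035 and -0.16, with SEs of 0.40 to 0.47. mt-Rnr1 and mt-Rnr2 had 0.48 ± 0.47 and 0.52 ± 0.55 (adjusted p = 0.73 and 0.76). Without the plate block mt-Atp6, mt-Co2, mt-Co3 and mt-Nd4 were above 0, and with spike-in scaling mt-Nd2, mt-Nd1, mt-Cytb and mt-Co1 were below 0.

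**Figure D4:**
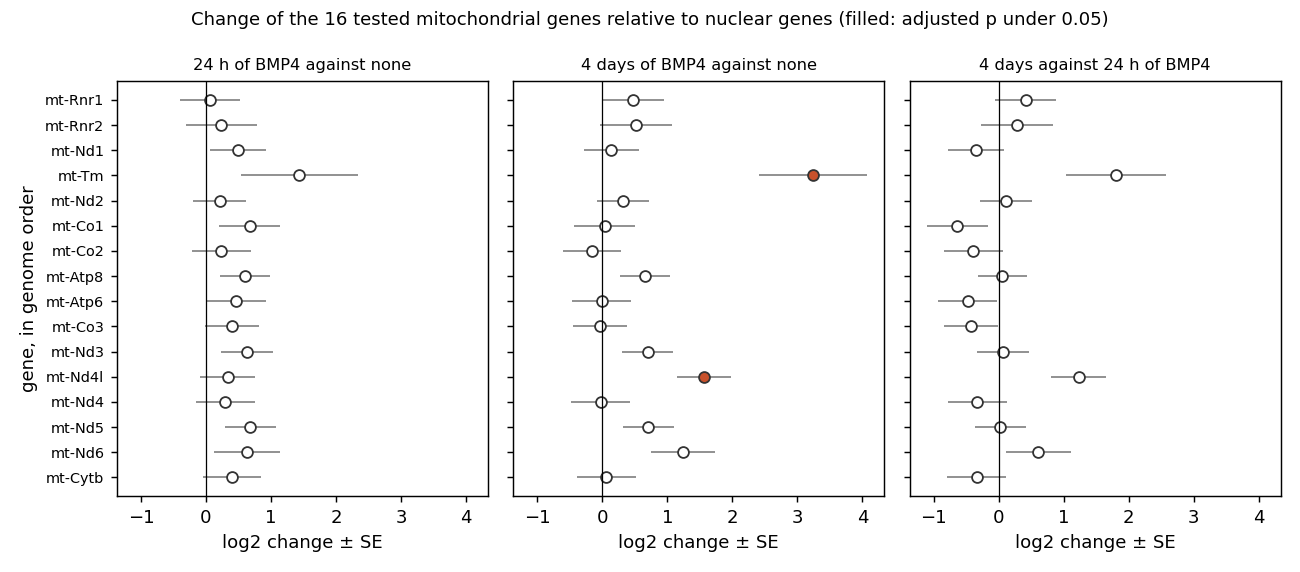
Log2 change ± SE (x axis) of the 16 tested members, in genome order (y axis), for the 3 comparisons; filled points passed at an adjusted p under 0.05. After 24 h all points lie above 0 and none is filled, and after 4 days mt-Tm (3.24) and mt-Nd4l (1.56) are filled.

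Between 4 days and 24 h of BMP4, no member passed, while 193 genes did, 3.36% of those tested (145 higher, 48 lower; 75.1% higher, against 44.9% with spike-in scaling). mt-Nd4l had 1.23 ± 0.42 (adjusted p = 0.14, edgeR) and mt-Tm 1.80 ± 0.77 (adjusted p = 0.29). The plates disagreed in size for mt-Nd4l, with 0.49 on Tac1 plate 1 and 2.34 on Tac1 plate 2, whose 24 h sum holds 12 of its transcripts. The median of the 16 members was 0.041, with 9 above 0. mt-Co1 had the lowest value, -0.64 ± 0.47 (adjusted p = 0.65). DESeq2 and limma also called 0 members here. Among the members, mt-Nd4l and mt-Tm had an unadjusted p under 0.05, as did 738 genes in all.

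**Figure D5:**
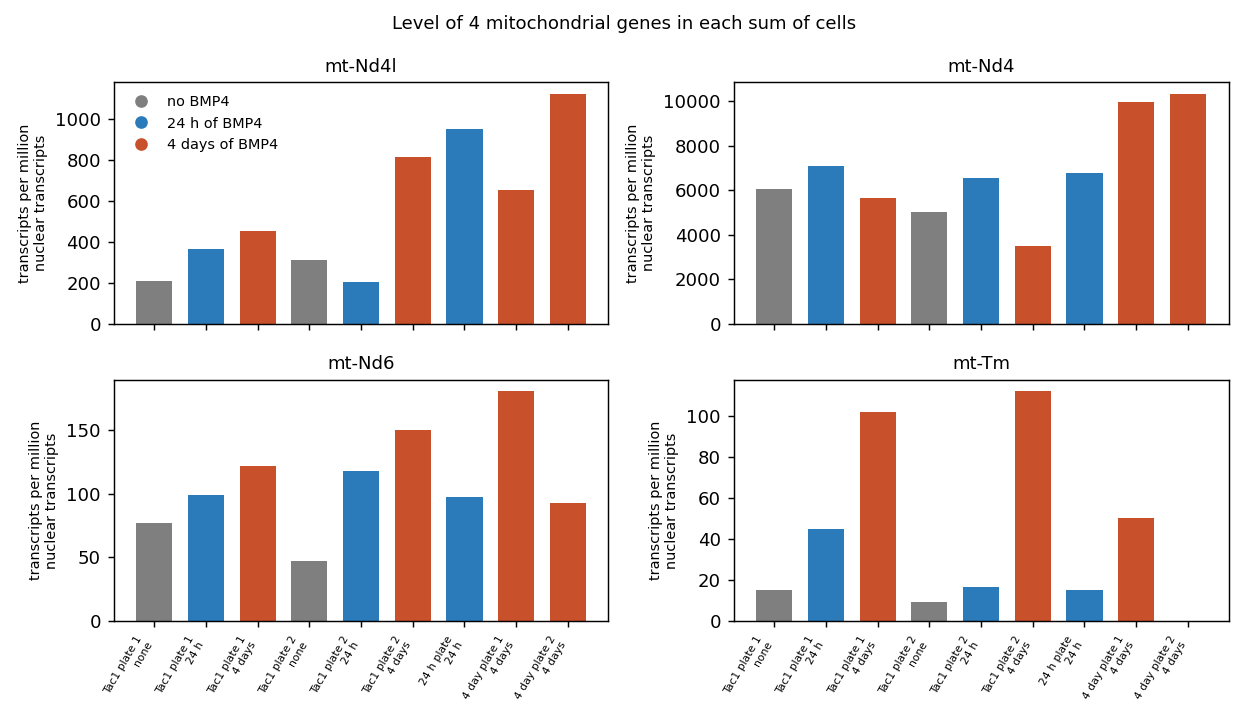
CPM, relative to nuclear transcripts (y axes, from 0) of mt-Nd4l, its neighbour mt-Nd4, the light-strand mt-Nd6 and mt-Tm in the 9 sums (x axis), coloured by BMP4 exposure. mt-Nd4l is at 451 to 1121 in the 4 day sums and 208 and 312 in the untreated ones, mt-Nd4 is highest on the 4 day plates, at 9984 and 10329, and lowest in the 4 day sum of Tac1 plate 2, at 3509, and mt-Tm is at 0 on 4 day plate 2.

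Members varied together from cell to cell. Over 8 sums of at least 15 cells, the 2 rRNAs had a mean Spearman correlation of 0.83 with each other, as levels relative to nuclear transcripts. The closest pair among the mRNAs was mt-Atp6 and mt-Nd1, at 0.76, and mt-Co2, mt-Cytb, mt-Nd4, mt-Co3 and mt-Co1 each had a partner at 0.71 to 0.74. The 3 rarest mRNAs had the lowest values: mt-Atp8, mt-Nd4l and mt-Nd6 had best values of 0.35, 0.34 and 0.26 and means over the other members of 0.26, 0.19 and 0.11. These are descriptions: all pairs share each cell's nuclear total, and sparse counts lower the values of rare members.

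Among nuclear-encoded genes, 2 abundant RNAs were most like the mitochondrial share. Over the same 8 sums (318 cells thinned to 2000 nuclear transcripts, 211 genes), the nuclear long RNA Malat1 had a mean rho of 0.55 and was positive in 7 of 8 sums. Rn45s, the precursor of cytosolic rRNA, had 0.44 and was positive in 8 of 8. Srrm2, Mir5109 and Map1b followed at 0.29 to 0.30, whereas the median gene had 0.092. At the other end, Cxcr2, H3f3a, Synj2bp, Cd81 and Hopx had -0.15 to -0.098. Chga, the granin that marks enteroendocrine cells, had 0.073, Tac1 0.12 and Tph1, which makes serotonin, 0.16. Malat1 and Rn45s thus lay above the endocrine genes in this measure, which has no test.

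Nuclear genes that serve mitochondria are set here beside the share of all tested genes that passed, 0.104% at 24 h, 5.44% at 4 days and 3.36% at 4 days against 24 h. In the mtDNA expression list (transcription, RNA processing and RNA turnover factors), 9 of 26 genes were tested and none passed in any comparison by edgeR. Tfam, which packages mtDNA and starts its transcription, had -0.50 ± 1.33 at 4 days (adjusted p = 0.93), and Lrpprc, which stabilises mitochondrial mRNAs, 0.12 ± 0.68 (adjusted p = 0.98). Ppargc1a, a coactivator of mitochondrial biogenesis, had -0.76 ± 1.49 (adjusted p = 0.89), and Polrmt had too few transcripts. Of the mtDNA maintenance list 4 of 13, of the biogenesis regulators 3 of 11, of the mitochondrial ribosome 45 of 76 and of the mitochondrial stress genes 10 of 14 were tested, with no call in the 3 comparisons.

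The lists of nuclear genes of the respiratory complexes, mostly taken by how the symbol starts, gave 2 calls at 4 days, both lower. They were 1 of 9 tested in complex III and 1 of 11 in complex IV, beside the 5.44% of all genes. Cyc1, the cytochrome c1 of complex III, fell by 1.98 on the log2 scale (SE 0.45, adjusted p = 0.0066, edgeR). Cox7a2l, a factor of complex III and IV assembly into supercomplexes that entered the complex IV list by its symbol, fell by 1.45 (SE 0.39, adjusted p = 0.025, edgeR). By the same test, none of the 38 tested genes of complex I, 4 of complex II or 16 of complex V passed. Their medians at 4 days were -0.30, -0.93 and -0.41. The 9 genes of complex III had a median of -0.43 and the 11 of complex IV -0.44. The median of all genes was -0.012. That of the 16 tested members was 0.40, but these include 2 rRNAs and mt-Tm, which are not subunit genes. Of the mitochondrial mRNAs, mt-Cytb (complex III) had 0.062, and mt-Co1, mt-Co2 and mt-Co3 (complex IV) had 0.033, -0.16 and -0.035. Those of complex V had -0.012 (mt-Atp6) and 0.66 (mt-Atp8), and those of complex I ran from -0.029 (mt-Nd4) to 1.56 (mt-Nd4l). The difference between nuclear and mitochondrial subunits was not tested. Optn, a mitophagy receptor, rose by 3.48 ± 0.84 at 4 days (adjusted p = 0.012), 1 of 11 tested genes of mitophagy and apoptosis, beside the same 5.44%. DESeq2 called none of the 3 (adjusted p = 0.13 for Cyc1, 0.26 for Cox7a2l and 0.13 for Optn).

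Other RNAs moved in the same sums. Kcnq1ot1, a nuclear long RNA, rose by 2.93 ± 0.70 at 4 days (adjusted p = 0.011, edgeR) and reached 61391 and 97897 CPM there on Tac1 plates 1 and 2, against 8303 and 17559 CPM without BMP4 and 15216 and 4981 CPM after 24 h. The 4 day plates had 39501 and 17512 CPM and the 24 h plate 26232 CPM, so that 1 of the 4 sums at 4 days lay within the untreated range. Without the plate block its change was 2.32 (adjusted p = 0.13). It is part of the nuclear total that the share is taken over. Neat1 fell by 1.93 (SE 0.43, adjusted p = 0.0058), and Meg3 fell by 3.26 between 24 h and 4 days (SE 0.79, adjusted p = 0.016). Tac1 itself fell by 2.68 at 4 days (SE 0.44, adjusted p = 2.9e-04) and Rfx6, an endocrine transcription factor, by 1.74. Of 8 tested enterocyte markers 3 passed, all apolipoproteins, and 2 of the 8 had values below 0. Apoa1 rose by 5.90 ± 0.62 (adjusted p = 2.9e-06, edgeR) and passed in 20 of 20 alternatives. Apoa4 (5.42 ± 1.61, adjusted p = 0.0496) was lost in 8 of 18 and Apoc3 (1.79 ± 0.48, adjusted p = 0.026) in 7 of 20, both with DESeq2 among them (adjusted p = 0.20 and 0.37). The enterocyte list summed to 333 to 1926 CPM over the 9 sums. Of the 4 tested goblet markers 1 passed, Fcgbp (1.92 ± 0.50, adjusted p = 0.021), whose call was lost in 11 of 20 alternatives (adjusted p = 0.099 without the plate block and 0.45 with DESeq2). The goblet list as a whole summed to 1962 CPM without BMP4 and 2122 CPM at 4 days on Tac1 plate 1, and to 2776 and 2065 CPM on Tac1 plate 2. The part of these RNAs, and of the lower enterochromaffin marker sum at 4 days, in the members' values was not tested.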

How the data were processed

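Single reporter-positive cells went through SORT-seq, which builds on CEL-seq2 and tags molecules with identifiers. The submitters' processing notes name BWA (0.6.2-r126) and the mm10 build. Which counter and annotation were used, and whether counting used strand, was not given in the sources used here. Deposited values are expected counts: the authors' transcript numbers, corrected for identifiers hit more than once. Undoing that correction with 4096 possible identifiers (6 bases) gave whole numbers, within 0.01, for 100.0% of nonzero values, whereas the labels describe 4 bases (256 possible). A gene absent from a plate's file was set to 0 there. Reads shared with nuclear copies of mitochondrial DNA or with overlapping genes cannot be separated.

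The members and lists were chosen with earlier results of these data known. Cells with at least 2000 nuclear transcripts were summed per plate and treatment (at least 5 cells a sum), rounded, filtered with filterByExpr, scaled by TMM on nuclear genes and tested with edgeR 4.0.16 in R 4.3.3 (quasi-likelihood, plate as a block, Benjamini-Hochberg over all genes). DESeq2 1.42.0 and limma 3.58.1 were alternatives, beside other scalings, filters, cell limits, identifier counts and leaving out each plate. No doublet caller was run on these sorted single cells. The fit was also run on simulated counts, drawn without plate differences and with changes put into nuclear genes only. That run therefore does not bear on the calls of members. One marker gene is not reported here and was left out of its list. Named were all protein and rRNA members, the 4 most abundant tRNAs, list genes that passed (up to 4 a list by smallest p), Tfam, Polrmt, Ppargc1a and Lrpprc, and the 5 genes most and the 5 least like the share. Chga, Chgb, Tac1 and Tph1 were added after their values were seen. Plates pair the treatments by design, as 3 treatments share 1 library. After removal of treatment means, sums of one plate correlated at -0.048 to 0.067 on Tac1 plate 1 and -0.0077 to 0.19 on Tac1 plate 2.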

Additional observations from a re-analysis of the deposited data

Results flagged for a closer look

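Within the 4 sums at 4 days, the rRNA part of mitochondrial transcripts stood apart on Tac1 plate 2, at 33.4% against 44.1%, 44.3% and 44.1% on the other 3 plates. The gap made up nearly the whole range of the 4 values. Tac1 plate 2 was also lowest in the other treatments, at 28.3% against 36.4% without BMP4, and at 22.6% against 36% and 52.6% after 24 h. Its 4 day value was the highest of that plate. It was 1 of 18 such checks, and chance alone marks about 1 in 20.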

How the results depend on the processing

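The 2 members called at 4 days were called together under TMM with mitochondrial genes, DESeq2 size factors, the mitochondrial total, no low-count filter, at least 1000 transcripts, at least 10 cells a sum and identifier counts, and limma called mt-Nd4l and mt-Nd5 (adjusted p = 0.030 and 0.044) but not mt-Tm. With no replicate block, which undoes the pairing by plate, 0 members were called, with spike-in scaling 1, at 4000 transcripts a cell 1 and with DESeq2 0, where mt-Tm had no adjusted p. Leaving out each plate in turn without the block gave 0 to 2 members (mt-Nd4l and mt-Nd3 without the 24 h plate). At 4 days against 24 h, a limit of 1000 transcripts called 1 member, mt-Nd4l, and leaving out plates gave 0 to 1 (mt-Nd4l without the 24 h plate). With the block kept, leaving out Tac1 plate 1 or 2 could not be fitted, for lack of residual degrees of freedom. Leaving out the 24 h plate or either 4 day plate, an alternative chosen after seeing the data, kept both calls at 4 days, with 280 to 301 genes called, and gave 0 members in the other comparisons. With the block, each of these plates is absorbed by its own plate term and does not enter the treatment differences. Leaving it out could act only through the gene filter, the scaling and the shared spread, so the kept calls are not independent support. Of 320 member values under 20 alternatives in each comparison, 7, 54 and 48 changed sign (24 h, 4 days, 4 days against 24 h). The alternatives counted here and for single genes include these fits.

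Genes called at 24 h (6) were 0 with limma and with no replicate block, 11 with no filter, 16 at 1000 transcripts, 13 with at least 10 cells a sum, and 0 to 6 with a plate left out. At 4 days (313) they were 114 with DESeq2, 508 at 1000 transcripts and 50 to 301 with a plate left out. At 4 days against 24 h (193) they were 82 with DESeq2, 314 with limma, 373 at 1000 transcripts and 36 to 199 with a plate left out. With spike-in scaling 45.8% of calls at 4 days were higher, against 67.4%. The share at 4 days against none, -0.026 points, was -0.78 by the median of cells, -1.43 at 2000 to under 4000 transcripts and 2.62 with no replicate block. Against 24 h, -1.50 points, it was -4.65 on Tac1 plate 1 with cells of 2000 to under 4000 transcripts (on Tac1 plate 2 the 24 h group has 4 such cells, under the 5 a sum needs) and 0.54 with no replicate block.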
